A study of Mus musculus with 20 samples.

Results

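The oligoadenylate synthetase (Oas) and interferon-induced tetratricopeptide repeat (Ifit) antiviral genes of the mouse brain are described here in the paraventricular thalamic nucleus (PVT) and the posterior insular cortex (pIC) of mice given streptozotocin (STZ) or vehicle. The 10 genes were chosen by name, with earlier results of these data known, so the counts below are not those of a blind choice. They are Oas1a, Oas1b, Oas1c, Oas2, Oas3, Oasl2, Ifit1, Ifit2, Ifit3 and Ifit3b, which are 10 of the 57180 gene identifiers in the count table. The STZ mice received a single intraperitoneal dose of 200 mg/kg, which the labels call the STZ-induced PDN model, and the control mice received vehicle. Tissue was taken at week 7, the endpoint of that model, and poly(A)-selected, stranded messenger RNA was sequenced as read pairs. Each region has 6 STZ libraries, labelled P1 to P6, and 4 control libraries, labelled C1 to C4. The sources used here do not give the strain, sex and age of the mice, nor whether PVT and pIC libraries with 1 label come from 1 animal. The samples are punches of whole tissue, so fewer cells of a type and less RNA per cell cannot be told apart in any value below. Streptozotocin destroys the insulin-producing cells of the pancreas and is used to make rodents diabetic.

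Libraries held 21703110 to 25345195 counts in PVT of STZ mice and 17939029 to 24549473 in PVT of control mice. In pIC they held 18969221 to 25533369 counts in STZ mice and 21165737 to 23345690 in control mice. Levels are given as CPM, counts brought to a common library size after TMM scaling. The regional labels were checked against neuron markers as mean log2 CPM of 12 genes. The thalamus score was 4.25 to 6.97 in PVT of STZ mice and 4.39 to 5.87 in PVT of control mice, above all pIC libraries, which lay at 2.68 to 3.38 in STZ mice and 2.80 to 3.08 in control mice. The score of striatum markers varied widely, from 4.01 to 7.56 in PVT of STZ mice and 4.32 to 6.43 in PVT of control mice. In 1 control library, C4 of PVT, growth hormone transcripts of the pituitary stood at 11826 CPM, against at most 1.48 CPM in the other PVT control libraries. The pIC library labelled C4 had 35.8 CPM of them, against at most 0.628 CPM in the other pIC control libraries.

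Oas and Ifit genes belong to the genes that cells switch on when type I or type III interferon binds its receptor. The receptor's kinases switch on the transcription factor complex ISGF3, of which IRF9 is a subunit, and ISGF3 binds the interferon-stimulated response element (ISRE) in the promoters of its targets. Oas enzymes bind double-stranded RNA and make short adenylate chains that act as a signal against viral RNA, and Ifit proteins bind viral RNA and hold back its translation.

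The sequences shown next are the places where these genes carry the letters of the ISRE, the element that ISGF3 binds. RefSeq promoters of build GRCm38.p6, from 250 bases before to 50 bases after each start, were found for 8 of the 10 genes. The ISRE core was searched as GAAANN followed directly by GAAA, on both strands. It was found in 6 of these 8 genes, whereas 3.99% of all 27025 genes and 3.44% of all 32851 promoters of the table held it. Each stretch is written 5′ to 3′ on the strand of its gene, and the capitals mark the ISRE core and its reverse complement.
Oas1a, chr5:120907509-120907568, minus strand: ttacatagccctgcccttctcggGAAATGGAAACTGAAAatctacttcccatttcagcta
Oas1c, chr5:120812592-120812651, minus strand: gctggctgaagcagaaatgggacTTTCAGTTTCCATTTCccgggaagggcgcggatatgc
Oas3, chr5:120777701-120777760, minus strand: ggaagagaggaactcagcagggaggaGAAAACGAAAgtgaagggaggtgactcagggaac
Ifit1, chr19:34640769-34640828, plus strand: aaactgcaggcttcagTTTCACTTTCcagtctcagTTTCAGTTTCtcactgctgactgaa
Ifit3, chr19:34583364-34583423, plus strand: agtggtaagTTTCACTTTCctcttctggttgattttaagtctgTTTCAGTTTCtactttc
Ifit3b, chr19:34607760-34607819, plus strand: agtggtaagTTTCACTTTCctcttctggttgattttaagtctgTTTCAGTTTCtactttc

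Oas1a carried 2 overlapping matches, from 20 to 5 bases before its start. The same run of 16 bases stood, reversed, 114 to 99 bases before the Oas1c start. The first Oas1b start in GENCODE M21 lies 121 bases from the Oas1c start on the other strand, so that this run also stands 22 to 7 bases before Oas1b, between both genes. Ifit1, Ifit3 and Ifit3b each had 2 separate matches, and the 60 bases of Ifit3 and Ifit3b were identical letter for letter. Oas3 had 1 match, 75 bases before its start. The promoter of Oasl2 and both promoters of Ifit2 had no match in these windows. Matches and calls did not go together in every gene, since Oasl2 fell without a match and Oas1c held matches without a call. The gamma-activated site, searched as TTCNNN followed directly by GAA, was found in Oas1a and in 1 of the Ifit2 promoters. It was found in 9.55% of all genes and 8.30% of all promoters.

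**Figure D1:**
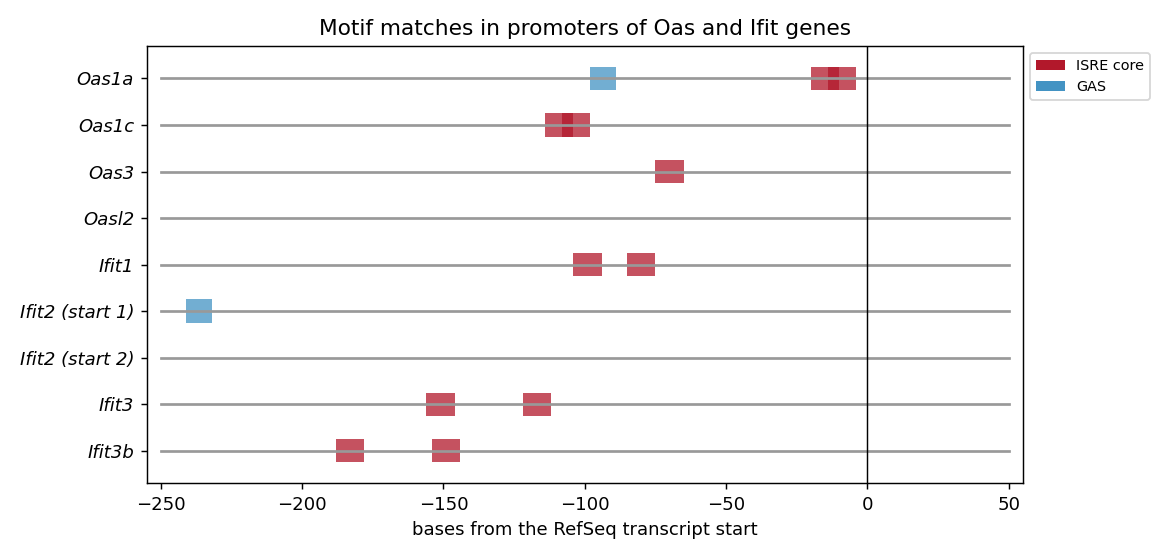
Positions of the ISRE core (red) and of the gamma-activated site (GAS, blue) in the promoters of 8 Oas and Ifit genes, with bases from the RefSeq start on the horizontal axis and 1 line for each start. Red marks stand in 6 genes, nearest to the start in Oas1a, and are missing from Oasl2 and from both starts of Ifit2.

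In PVT, 6 of the 10 genes fell after STZ, to between 3.20-fold and 4.91-fold lower levels, and 3 tested genes were not called. Oasl2, Ifit1, Ifit3, Ifit3b, Oas1a and Oas1b fell. Ifit2, Oas1c and Oas2 did not pass the test, and Oas3 had too few counts to be tested with the rest. No member rose. Of all 17076 genes tested in PVT, 2.07% were called in either direction, 1.59% fell and 0.474% rose. Lower calls were 77.1% of all calls, and 87.8% with upper quartile scaling. This share moved by more than 10 percentage points in 7 alternatives and by less in 17, and it was lower with DESeq2. The median log2 fold change of the 9 tested members was -1.74, against 0.0038 for all genes tested. Calls are adjusted p-values under 0.05 by the edgeR quasi-likelihood test with Benjamini-Hochberg adjustment over all genes tested.

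In pIC the 6 genes that fell were again Oasl2, Ifit1, Ifit3, Ifit3b, Oas1a and Oas1b, to between 3.27-fold and 4.78-fold lower levels. The same 3 genes were tested without a call and Oas3 was again left out by the filter. Oas1b passed that filter in pIC only through its control libraries. Of 16189 genes tested in pIC, 1.4% were called in either direction, 0.964% fell and 0.432% rose. The median log2 fold change of the 9 tested members was -1.75, against -0.00063 for all genes. Of 15975 genes tested in both regions, 90 (0.563%) fell in both, and these 6 genes are among them. In 7 of the 10 genes, these 6 and Oas3, every STZ library lay below every control library in each region. Groups that do not overlap in this direction were seen in 3.91% of genes tested in PVT and 2.4% in pIC, and in the opposite direction in 2.28% in PVT and 1.88% in pIC.

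**Figure D2:**
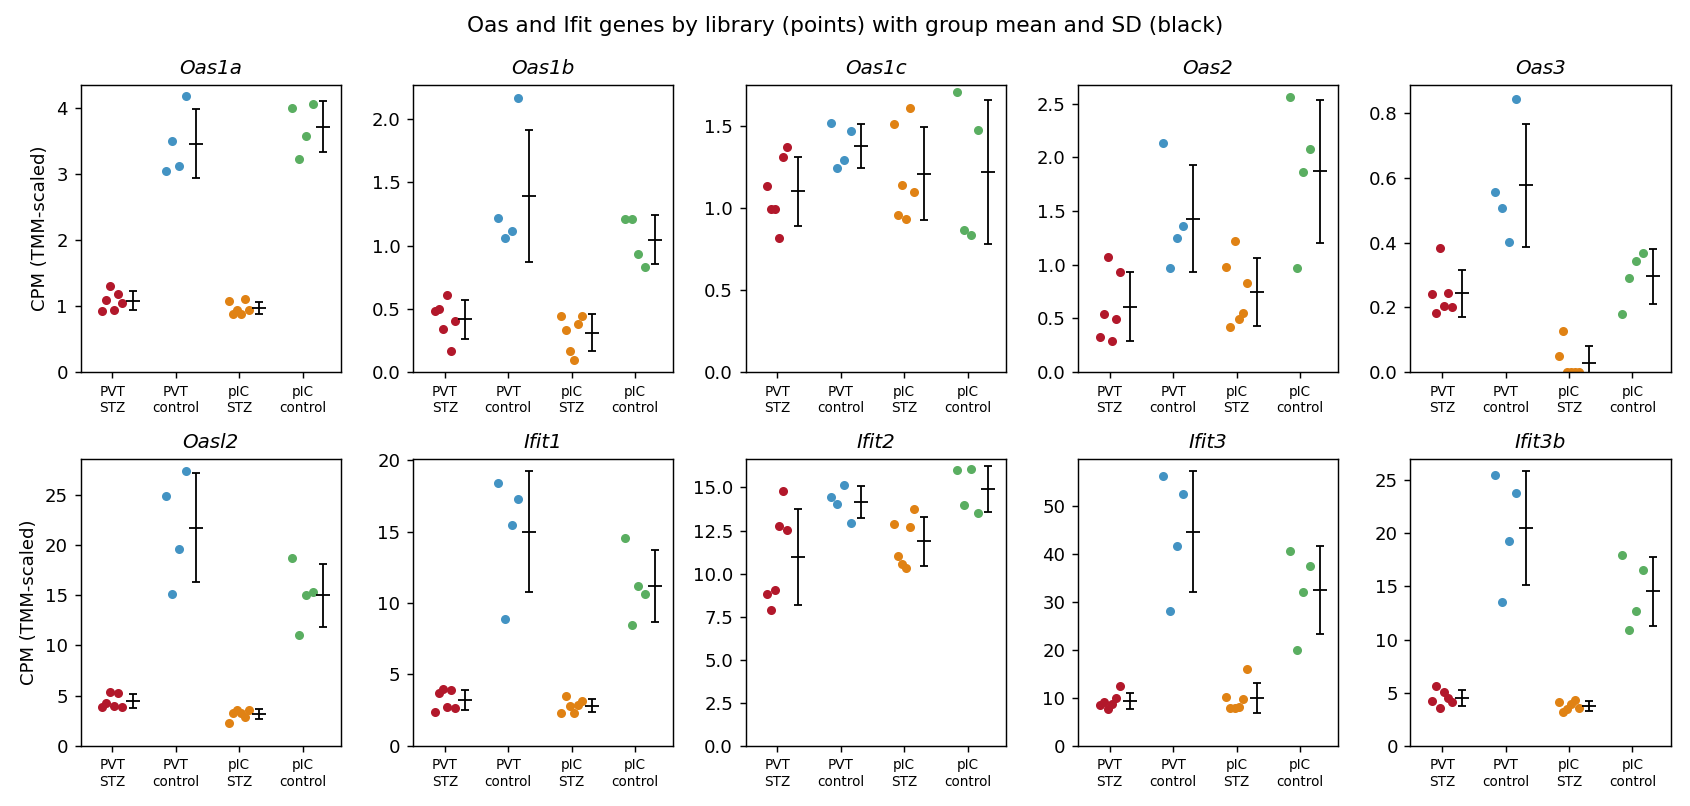
CPM of each Oas and Ifit gene in every library (points) by group, with the group mean and SD in black. Vertical axes start at 0 and differ between genes. STZ libraries lie below control libraries in both regions for 7 genes, and the groups overlap for Ifit2, Oas1c and Oas2.

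**Figure D3:**
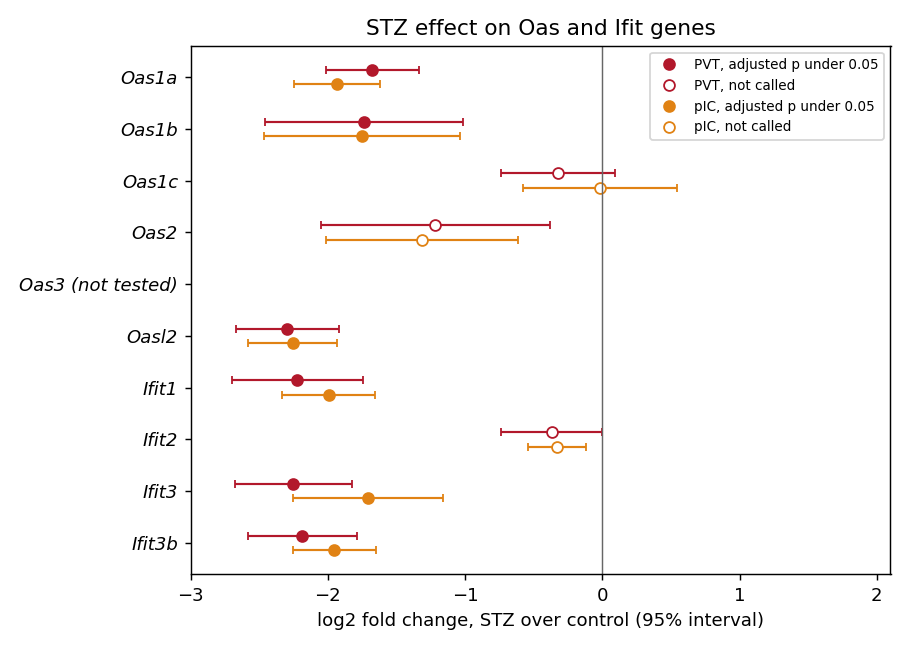
Log2 fold change of STZ over control for each gene in PVT (red) and pIC (orange), with 95% intervals; filled points were called at an adjusted p under 0.05. Oasl2 lies lowest in PVT at -2.30 and in pIC at -2.26, and the Oas1c interval crosses 0 in both regions.

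Among the tested synthetases, Oasl2 had the log2 fold change of largest size. Oasl2 makes adenylate chains in the mouse and carries ubiquitin-like repeats. In PVT it stood at 3.84, 4.13 and 5.39 CPM (lowest, median and highest) in STZ libraries, against 24.9, 15.1, 19.7 and 27.4 CPM in control libraries C1 to C4. In pIC it stood at 2.29, 3.23 and 3.59 CPM in STZ libraries, against 18.7, 11.01, 15.01 and 15.3 CPM in control libraries. The highest STZ library was below the lowest control library by more than the whole spread of the STZ libraries in each region. The log2 fold change was -2.30 (SE 0.17, edgeR adjusted p = 5.0e-05) in PVT and -2.26 (SE 0.15, adjusted p = 1.6e-06) in pIC. Oasl2 was called under all 24 alternatives in PVT and all 21 in pIC.

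Oas1a is an active synthetase of the Oas1 cluster in the mouse. Its PVT level was 0.931, 1.07 and 1.30 CPM in STZ libraries (lowest, median and highest), against 3.04, 3.50, 3.12 and 4.19 CPM in control libraries C1 to C4. Its pIC level was 0.878, 0.937 and 1.10 CPM in STZ libraries, against 3.997, 3.23, 3.58 and 4.07 CPM in control libraries. Both groups were tight, and the gap between them was wider than either group. Oas1a fell by 1.68 on the log2 scale in PVT (SE 0.15, edgeR adjusted p = 2.3e-04) and by 1.93 in pIC (SE 0.15, adjusted p = 4.7e-06). Of its 150-base windows, 32.4% are also found in Oas1g, a near copy, and the counting of reads that match several genes is not described in the sources used here. Oas1g itself was too low to test, with 0.116 ± 0.070 CPM in STZ and 0.538 ± 0.189 CPM in control libraries of PVT (SD, n = 6 and 4), and 0.0957 ± 0.0848 CPM in STZ and 0.392 ± 0.369 CPM in control libraries of pIC.

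Oas1b is the gene behind flavivirus resistance in some mouse strains, and RefSeq lists it as a transcribed pseudogene in the reference assembly, which is of the strain C57BL/6J. It was low, with 4 to 15 counts in STZ and 23 to 59 counts in control libraries of PVT, and 2 to 9 counts in STZ and 18 to 27 counts in control libraries of pIC. No STZ library reached the lowest control library in either region. Oas1b fell by 1.74 on the log2 scale in PVT (SE 0.33, edgeR adjusted p = 0.0229) and by 1.75 in pIC (SE 0.33, adjusted p = 0.0156). In pIC every STZ library was under the filter's count of 10, so Oas1b entered that test only through the control libraries, where it is high. Among STZ libraries of both regions alone, the filter removed it. The PVT call was held in 14 of 23 alternatives. Among the settings that ended it were the fits without P3 (adjusted p = 0.0553), without C1 (0.0569) or without C4 (0.0845), the library with pituitary transcripts. It was also lost without the 4 libraries lowest in thalamus genes (0.171), and with the microglia score (0.141) or the choroid plexus score (0.382) as a covariate. Without C4 the other 5 genes kept their PVT calls. The pIC call was held in 16 of 20 alternatives and was lost without C1 (0.0726), without C2 (0.0727), with the endothelium score as a covariate (0.795) or at a threshold of 0.01. The PVT call was lost at that threshold too.

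Oas1c shares with Oas1b the stretch between their starts printed above, ISRE core included. Its PVT level was 0.817, 1.06 and 1.37 CPM in STZ libraries (lowest, median and highest), against 1.52, 1.24, 1.29 and 1.47 CPM in control libraries C1 to C4. Its pIC level was 0.935, 1.12 and 1.61 CPM in STZ libraries, against 1.71, 0.869, 0.834 and 1.48 CPM in control libraries. The groups overlapped in both regions. The log2 fold change was -0.32 in PVT (95% interval -0.74 to 0.09, edgeR adjusted p = 0.407) and -0.02 in pIC (95% interval -0.57 to 0.54, adjusted p = 0.990). These intervals do not reach the change measured for Oas1b in the same region. In GENCODE M21 another gene on the opposite strand overlaps 227 exonic bases of Oas1c, and the sources used here do not say whether the counting used strand.

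Oas2 and Oas3 are the larger synthetases, built of repeated synthetase units. In PVT Oas2 stood at 0.286, 0.517 and 1.07 CPM in STZ libraries (lowest, median and highest), against 2.13, 0.968, 1.25 and 1.36 CPM in control libraries C1 to C4. In pIC it stood at 0.418, 0.689 and 1.22 CPM in STZ libraries, against 2.56, 0.965, 1.86 and 2.08 CPM in control libraries. In each region the groups overlapped through the highest STZ libraries and C2, the lowest control library. The log2 fold change was -1.22 in PVT (95% interval -2.05 to -0.38, edgeR adjusted p = 0.129) and -1.32 in pIC (95% interval -2.02 to -0.62, adjusted p = 0.0679). Oas2 was called in none of 23 alternatives in PVT and in 5 of 21 in pIC, among them the fits without P3 (adjusted p = 0.0210) or without C2 (0.0427).

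Oas3 was the lowest of the 10 genes. It had 6, 4, 10, 5, 6 and 5 counts in STZ libraries P1 to P6 of PVT, against 11, 11, 9 and 23 counts in control libraries C1 to C4, and no STZ library reached the lowest control library once scaled. In pIC it had 1 and 3 counts in STZ libraries P1 and P2 and 0 in the other 4, against 4, 6, 7 and 8 counts in control libraries. Its mean level was 0.243 ± 0.073 CPM in STZ and 0.578 ± 0.190 CPM in control libraries of PVT (SD, n = 6 and 4), and 0.0290 ± 0.0511 CPM in STZ and 0.296 ± 0.084 CPM in control libraries of pIC. A two-sided exact permutation test of the difference in mean CPM gave p = 0.00476 in each region, 0.00476 adjusted over both regions, which is the smallest value 210 splits allow. This value restates that the groups do not overlap, and it was not adjusted over all genes. Groups did not overlap in this direction in 3.91% of genes tested in PVT and 2.4% in pIC. The edgeR fit of all genes with no filter beyond 1 count gave Oas3 a log2 fold change of -1.24 in PVT (SE 0.37, adjusted p = 0.135), which was not called, and -3.05 in pIC (SE 0.82, adjusted p = 0.0480). Without C3, Oas3 passed the filter in PVT and was not called there (adjusted p = 0.0716).

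Among the Ifit genes, Ifit3 had the highest mean level per kilobase of exon in each of the 4 groups, while in CPM Ifit2 was above it in STZ libraries of both regions. The protein joins antiviral signalling complexes on mitochondria and binds other Ifit proteins. In PVT Ifit3 stood at 7.76, 8.90 and 12.4 CPM in STZ libraries (lowest, median and highest), against 56.4, 28.1, 41.8 and 52.7 CPM in control libraries C1 to C4. In pIC it stood at 7.92, 9.003 and 16.1 CPM in STZ libraries, against 40.8, 19.9, 32.1 and 37.5 CPM in control libraries. The highest STZ library was P6 in both regions, and the lowest control library was C2 in both. Ifit3 fell by 2.25 on the log2 scale in PVT (SE 0.19, edgeR adjusted p = 2.1e-04) and by 1.71 in pIC (SE 0.25, adjusted p = 0.00766). Ifit3 kept its call in all 24 alternatives in PVT and in 20 of 21 in pIC, where the endothelium score as a covariate ended it (adjusted p = 0.393).

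Ifit3b, a near copy of Ifit3, had PVT levels of 3.52, 4.36 and 5.66 CPM in STZ libraries (lowest, median and highest), against 25.5, 13.5, 19.3 and 23.8 CPM in control libraries C1 to C4. Its pIC levels were 3.18, 3.73 and 4.32 CPM in STZ libraries, against 18.0, 10.9, 12.7 and 16.5 CPM in control libraries. The STZ groups were narrow and far below the control groups. Ifit3b fell by 2.19 on the log2 scale in PVT (SE 0.18, edgeR adjusted p = 1.1e-04) and by 1.95 in pIC (SE 0.14, adjusted p = 3.3e-06). The transcripts of Ifit3 and Ifit3b are 98.0% identical over their aligned bases, and 18.5% of the 150-base windows of Ifit3 are also found in Ifit3b, so the division of reads between them is uncertain. The ratio of Ifit3 to Ifit3b CPM was 1.61 to 2.99 in STZ and 2.08 to 2.21 in control libraries of PVT, and 2.08 to 4.58 in STZ and 1.83 to 2.53 in control libraries of pIC. The ratio of 4.58 belongs to P6 of pIC, where Ifit3 was high and Ifit3b was not.

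Ifit1, which binds viral RNA whose cap lacks ribose methylation, had PVT levels of 2.39, 3.18 and 4.01 CPM in STZ libraries (lowest, median and highest), against 18.4, 8.90, 15.5 and 17.3 CPM in control libraries C1 to C4. Its pIC levels were 2.26, 2.83 and 3.47 CPM in STZ libraries, against 14.5, 8.45, 11.2 and 10.6 CPM in control libraries. The groups did not overlap in either region. Ifit1 fell by 2.22 on the log2 scale in PVT (SE 0.22, edgeR adjusted p = 3.6e-04) and by 1.99 in pIC (SE 0.16, adjusted p = 7.0e-06).

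Ifit2 stood apart from the other Ifit genes. In mice it limits the infection of brain neurons by some viruses. In PVT it stood at 7.88, 10.8 and 14.8 CPM in STZ libraries (lowest, median and highest), against 14.5, 14.1, 15.2 and 12.97 CPM in control libraries C1 to C4. In pIC it stood at 10.3, 11.9 and 13.8 CPM in STZ libraries, against 16.03, 13.999, 16.1 and 13.5 CPM in control libraries. The groups overlapped in both regions, in pIC only through P6 and C4. The log2 fold change was -0.37 in PVT (95% interval -0.74 to -0.0012, edgeR adjusted p = 0.279) and -0.33 in pIC (95% interval -0.54 to -0.12, adjusted p = 0.146), and it was called in none of the alternatives in either region. These intervals do not reach the changes measured for Ifit1, Ifit3 and Ifit3b in the same region.

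Ifit2, whose own level was not called, made up a higher share of the set in STZ libraries, where the 6 called genes were lower. Ifit2 gave 23.2% to 35.5% of the summed CPM of the 10 genes in STZ libraries of PVT, against 8.99% to 16.2% in control libraries. In pIC it gave 31.7% to 36.0% in STZ libraries, against 13.2% to 19.8% in control libraries. These shares did not overlap between STZ and control in either region. Per kilobase of exon in GENCODE M21, Ifit2 held the second place among mean levels in STZ libraries of both regions, with 2.79 ± 0.71 CPM per kb in PVT and 3.02 ± 0.36 in pIC (SD, n = 6 each), below Ifit3 with 5.40 ± 0.94 in PVT and 5.75 ± 1.80 in pIC. On the same scale the order of mean levels in control libraries of PVT was Ifit3 (25.6 ± 7.3 CPM per kb, SD, n = 4), Ifit3b (10.3 ± 2.7), Ifit1 (5.65 ± 1.60), Ifit2 (3.61 ± 0.23), Oasl2 (3.41 ± 0.86), Oas1a (1.84 ± 0.28), Oas1b (0.698 ± 0.262), Oas1c (0.575 ± 0.056), Oas2 (0.321 ± 0.112) and Oas3 (0.0817 ± 0.0268). In that order Ifit2 and Oasl2, and Oas1b and Oas1c, lay closer to each other than the larger of their SDs. The order was the same in control libraries of pIC.

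The control libraries kept a similar order across the 6 genes that fell. Their summed level was 20.5, 23.3 and 24.9 CPM in STZ libraries of PVT (lowest, median and highest), against 129, 70.2, 100.5 and 128 CPM in control libraries C1 to C4. In pIC it was 18.6, 19.7 and 27.8 CPM in STZ libraries, against 97.2, 54.7, 75.6 and 84.8 CPM in control libraries. The control library labelled C2 was the lowest control for 5 of the 6 genes in each region. The highest control in pIC was C1 for 5 of the 6 genes, and in PVT it was C1 for 3 and C4 for 3. STZ libraries spread less around their median than control libraries did.

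**Figure D4:**
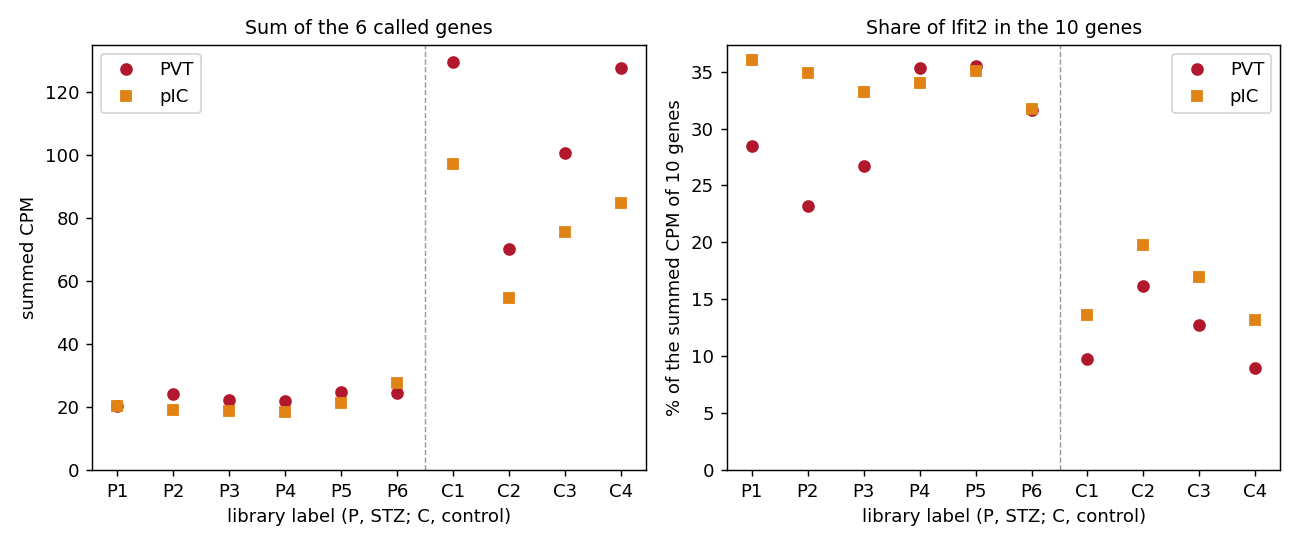
Left, summed CPM of the 6 genes that fell; right, percent of the summed CPM of the 10 genes that is Ifit2, for each library label (P, STZ; C, control) in PVT (circles) and pIC (squares). The sums of STZ libraries end at 27.8 CPM and those of control libraries begin at 54.7 CPM, with C2 lowest among controls in both regions.

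The difference between the STZ effects in PVT and pIC was tested as an interaction over all 20 libraries. None of the 9 tested members was called, nor was any of 17427 genes (0%), by the edgeR quasi-likelihood test. At an unadjusted p under 0.05 there were 701 genes (4.02%), of which 0 were members. DESeq2 called 4 genes and limma-voom called 0, none of them a member. Among the 9 tested members the widest difference was that of Ifit3, whose effect in PVT minus that in pIC was -0.56 (95% interval -1.24 to 0.12, adjusted p = 1.00). Oas3, which the filter removed, had a wider difference of 1.83 (SE 0.85) with no filter beyond 1 count, and it was not called. For Oasl2 the difference was -0.05 (95% interval -0.55 to 0.45) and for Oas1a it was 0.24 (95% interval -0.17 to 0.65). These intervals leave room for differences in either direction.

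The levels of the members were also compared between regions. In STZ mice 1 of 8 tested members was called, against 49.1% of 16489 genes called in either direction and 26% called higher in PVT. It was Oasl2, with a log2 fold change of 0.50 in favour of PVT (SE 0.14, edgeR adjusted p = 0.00849). The Oasl2 level was 3.84 to 5.39 CPM in PVT and 2.29 to 3.59 CPM in pIC of STZ mice, with no overlap. Regions did not overlap in this direction in 14.9% of tested genes, and in the other direction in 12.9%. The call of Oasl2 was held in 20 of 21 alternatives and was lost against a minimum fold of 2. Oas3, left out by the filter, did not overlap either, with 0.181 to 0.382 CPM in PVT and 0 to 0.125 CPM in pIC of STZ mice. With no filter beyond 1 count it was called higher in PVT of STZ mice (log2 fold change 2.80, SE 0.73, edgeR adjusted p = 0.00415). In control mice the same setting did not call Oas3 (adjusted p = 0.112). In control mice 0 of 9 tested members were called between PVT and pIC by edgeR and 2 by DESeq2, whereas edgeR called 47.8% of 16614 genes. At an unadjusted p under 0.05 in edgeR there were 2, Oasl2 (log2 fold change 0.55, edgeR adjusted p = 0.0543) and Ifit3b (0.51, adjusted p = 0.0872), both higher in PVT. Without C2 of PVT, 3 members were called, Oasl2 (adjusted p = 0.00872), Ifit1 (0.00926) and Ifit3b (0.0106). With the label as a block in edgeR, Oasl2 (adjusted p = 0.00475), Ifit1 (0.0266), Ifit3 (0.00156) and Ifit3b (0.00343) were called. Of all genes, 25.5% were called higher in PVT of control mice without a block. For Oasl2, Oas3, Ifit1, Ifit3 and Ifit3b, the PVT library was above the pIC library of the same label in 4 of 4 control labels. It was above in 3 for Oas1b, 2 for Oas1a and Oas1c and 1 for Oas2 and Ifit2. Of 6 STZ labels it was above in 6 for Oasl2, Oas3 and Ifit3b, 5 for Ifit1 and Oas1a and 4 for Oas1b. It was above in 3 STZ labels for Ifit3 and in 2 for Oas1c, Oas2 and Ifit2. Libraries of 1 label are not known to be of 1 animal, and the share of all genes with this order was not counted.

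The wider pathway was read from lists, given as counts of genes that passed the test. Transcripts of the ligands were at or near 0 in the punches, and the ligand proteins were not measured. Of 20 genes of type I and type III interferons, 2 had any count, with at most 2 counts in a library, and interferon gamma had at most 3, so none was tested. Of 11 tested genes of interferon receptors, kinases and ISGF3, 4 fell and 0 rose in each region. Among them, Irf9 fell by 1.54 on the log2 scale in PVT (SE 0.14, edgeR adjusted p = 2.3e-04). In pIC it fell by 1.498 (SE 0.11, adjusted p = 3.9e-06). Stat2 was called lower in both regions, Il10rb in PVT and Ifnar2 in pIC, and the receptor gene Ifnar1 was called in neither. The call of Il10rb was held in 9 of 24 alternatives and that of Ifnar2 in 7 of 21.

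Of the genes linked to the adenylate chains, Abce1, a factor that recycles ribosomes, and Pde12, which degrades the chains, were not called in either region. The log2 fold change of Abce1 was 0.11 in PVT and 0.02 in pIC, and that of Pde12 was 0.01 in PVT and 0.03 in pIC. Of other genes of both families, 3 were tested in PVT and 2 in pIC. Oasl1, which in the mouse represses translation of Irf7, fell by 1.55 on the log2 scale in PVT (SE 0.31, adjusted p = 0.0271) and was too low to test in pIC. Its PVT call was held in 12 of 23 alternatives. Ifit1bl1 and Ifit1bl2 did not pass the test in either region, with log2 fold changes of -0.04 and 0.05 in PVT and 0.08 and -0.05 in pIC. Oas1d, Oas1e, Oas1f and Oas1h had at most 2 counts in a library.

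Among other interferon-stimulated antiviral effectors, 25 of 31 tested fell in PVT and 21 of 31 in pIC, and 0 rose. Of genes led by interferon gamma, 10 of 11 fell in PVT and 9 of 10 in pIC. Of RNA sensors, 7 of 10 fell in PVT and 5 of 10 in pIC. Among interferon regulatory factors, 2 of 7 fell in PVT (Irf7 and Irf1) and 1 of 8 in pIC (Irf7), and among negative regulators of interferon signalling 1 of 9 fell in each region, Usp18, whose product is itself induced by interferon. The Irf1 call was held in 8 of 24 alternatives and that of Irf7 in PVT in 23 of 24. Median log2 fold changes were -1.26 in PVT and -0.97 in pIC for the effectors and -1.90 in PVT and -1.16 in pIC for the genes led by interferon gamma.

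**Figure D5:**
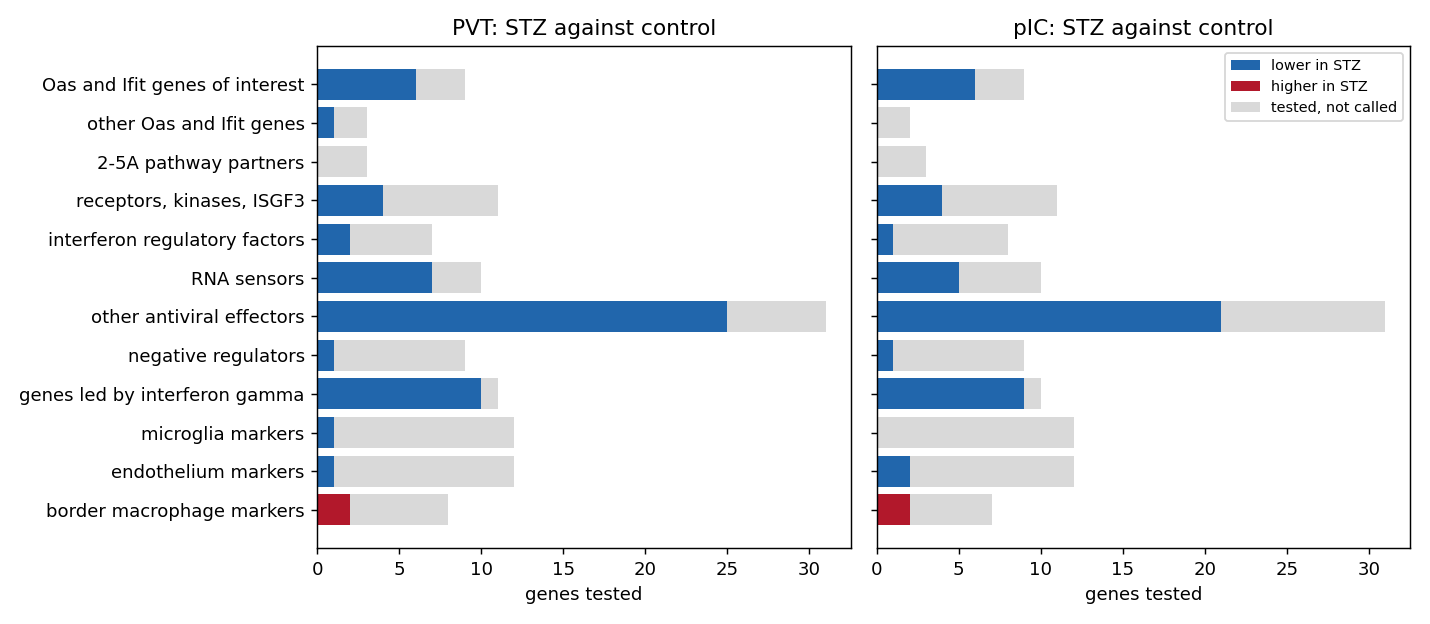
Number of tested genes in each list that were lower (blue), higher (red) or not called (grey) in STZ against control, for PVT (left) and pIC (right). Lists of effectors and of genes led by interferon gamma are mostly blue, and the lists of adenylate pathway partners, microglia and endothelium markers are mostly grey.

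Among the 5 genes whose profile over the 20 libraries was nearest to the mean profile of the members were Irf9, Rnf213, Xaf1 and Trim30a, by the root mean square difference of centred log2 CPM among 14934 candidates. The difference was 0.171 for Irf9 and 0.250 for Trim30a, the 5th. The same measure for the members themselves was 0.234 for Oas1a, 0.328 for Ifit3, 0.600 for Ifit2 and 0.679 for Oas1c. All 8 members with a mean of at least 1 CPM made the profile, Ifit2 and Oas1c included.

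Markers of other cell types were read beside these results as the mean log2 CPM of each list. The part they have in the members' changes was not tested. Of 12 microglia markers, all detected, 1 fell in PVT (Aif1) and 0 in pIC. The microglia score was 4.22 to 4.37 in STZ and 4.34 to 4.57 in control libraries of PVT, and 4.24 to 4.46 in STZ and 4.38 to 4.53 in control libraries of pIC. With that score as a covariate, 5 of the 6 members kept their calls in PVT, where Oas1b lost its own, and 6 in pIC. Border macrophage markers were higher in STZ libraries, with 2 of 8 called in PVT and 2 of 7 in pIC and 0 lower. Their score was 1.32 to 2.14 in STZ and 0.796 to 1.16 in control libraries of PVT, and 1.75 to 2.23 in STZ and 1.03 to 1.38 in control libraries of pIC.

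Endothelium markers were called lower for 1 of 12 in PVT and 2 of 12 in pIC. Their score was 4.40 to 4.71 in STZ and 4.56 to 4.66 in control libraries of PVT, and 4.44 to 4.76 in STZ and 4.72 to 4.84 in control libraries of pIC. With that score as a covariate, 6 members kept their calls in PVT and 4 in pIC, where Oas1b and Ifit3 lost theirs and 54 genes in all were called, against 226 without it. Of 12 markers of ependyma, the lining of the ventricle beside PVT, 9 fell in PVT, where their score was 2.56 to 3.03 in STZ and 3.08 to 3.69 in control libraries. Choroid plexus markers gave 0 calls of 12 in PVT, with a score of 4.62 to 5.72 in STZ and 5.63 to 6.56 in control libraries, and with that score as a covariate 5 of the 6 members kept their calls and Oas1b lost its own. Of 10 oligodendrocyte markers, 3 fell in PVT (Cnp, Opalin and Mog) and 0 in pIC. Their score was 7.55 to 8.004 in STZ and 8.09 to 8.32 in control libraries of PVT, which do not overlap, and 6.40 to 7.45 in STZ and 6.82 to 7.15 in control libraries of pIC. Of 10 astrocyte markers 0 were called in either region. Of 10 lymphocyte markers 1 was high enough to test and it was not called in either region.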

How the data were processed

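Each punch library was sequenced as stranded, poly(A)-selected read pairs, per the labels. The authors deposited raw, whole-number counts of 57180 Ensembl identifiers for 20 libraries, with none pooled, and the submitters' processing notes name the build GRCm39 (mm39). How reads were aligned and counted, and with which annotation, is not given in the sources used here. Symbols, exon lengths and shared 150-base windows came from GENCODE M21 and promoters from RefSeq, both of build GRCm38, so positions are given for promoters only.

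Groups came from the labels. Nothing there says that libraries of a group are separate animals, so p-values measure the spread between libraries. STZ was tested against control within a region by the edgeR 4.0.16 quasi-likelihood test with robust estimation (R 4.3.3), after TMM scaling and removal of genes by filterByExpr at a count of 10 and a total of 15. The interaction was fitted over all 20 libraries. Calls are Benjamini-Hochberg adjusted p-values under 0.05, over all genes tested. Oas3, which the filter removed, was tested by exact permutation. CPM used TMM-scaled library sizes, and scores used a prior count of 2. All members are named; other genes were named by list, up to 4 called of smallest p in a region, by family, or as the 5 nearest in profile. The members, the lists and the tests were chosen with earlier results of these data known.

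Alternatives were other scalings and filters, DESeq2 1.42.0, limma-voom (limma 3.58.1), a stricter threshold, marker scores as covariates, all libraries in 1 fit, a block and leaving out libraries. The PVT fit without C4 entered the tallies both in its turn and as that without the library highest in pituitary transcripts. On simulated data of this design, 76.1% of genes changed 2-fold were recovered in PVT and 92.5% in pIC. Of genes changed 1.5-fold, 55.2% were recovered in PVT and 80.6% in pIC. Unchanged genes made up 6.13% of the simulated calls in PVT, 3.7% in pIC and 2.82% for the interaction. Between regions they made up 7.02% in control mice and 0% in STZ mice. The changed genes all had a mean of at least 1 CPM, so recovery at lower levels was not measured. The lowest chi-square per degree of freedom between libraries of a group was 4.00, so none was taken as a duplicate. A comparison of proteins was not made, and some genes of the lists are not reported here.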

Additional observations from a re-analysis of the deposited data

Results flagged for a closer look

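For each of the 10 genes, the 4 groups were searched for 1 library that stood far from the rest, with the gap to its nearest neighbour set against the range of the group by Dixon's criterion. Of 40 groups, 3 met it, and chance gives about 1 in 20. Ifit3 in P6 of pIC stood at 16.1 CPM, while the other 5 STZ libraries of pIC lay at 7.92 to 10.2 CPM. Without P6 the log2 fold change of Ifit3 in pIC was -1.89 (edgeR adjusted p = 5.8e-04). Oas1b in C4 of PVT stood at 2.17 CPM, while the other 3 control libraries lay at 1.06 to 1.22 CPM, and this is the library that held 11826 CPM of growth hormone transcripts. Oas3 in P3 of PVT stood at 0.382 CPM, or 10 counts, while the other 5 STZ libraries lay at 0.181 to 0.246 CPM.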

How the results depend on the processing

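The count of members that fell stayed at 4 to 6 in PVT over 24 alternatives and at 4 to 8 in pIC over 21, including leave-one-out fits with 5 to 6 in PVT and 5 to 7 in pIC. Oasl2, Oas1a and Ifit3b were called in every alternative of both regions. All genes called in PVT numbered 353, and 904 with DESeq2, 679 with all libraries in 1 fit, 104 at an adjusted p under 0.01, 85 with the microglia score, 59 with the choroid plexus score, 70 without the 4 libraries lowest in thalamus genes (P1, P2, P3 and C2) and 143 without C4. In pIC they numbered 226, and 468 with DESeq2, 367 with limma-voom, 103 at an adjusted p under 0.01, 131 with the microglia score and 54 with the endothelium score. Leaving out each library in turn gave 143 to 343 in PVT and 128 to 272 in pIC. Lower calls were 60.95% of DESeq2 calls in PVT and 54.1% in pIC. For the interaction the count of members was 0 in all alternatives, and that of all genes 1 without a filter, 4 with DESeq2 and 0 to 3 in leave-one-out fits. Between regions in STZ mice, 2 members were called with upper quartile scaling, 2 without a filter, 0 against a minimum fold of 2 and 1 to 2 in leave-one-out fits. In control mice, 1 was called with upper quartile scaling, 2 with DESeq2 and 0 to 3 in leave-one-out fits. Against a minimum fold of 2, all genes called between regions were 594 in STZ mice, where 8089 were called without one, and 873 in control mice, where 7948 were.

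Correlation did not settle whether equal numbers or labels pair the libraries. Deviations from group means correlated above 0.1 in 1 of 4 number pairs in PVT, 2 of 4 in pIC and 5 of 10 label pairs between regions. In the same order, 2 of 8, 4 of 8 and 7 of 20 libraries correlated best with their own number or label. Each library had 4 candidates in the number pairs and 10 in the label pairs. With the replicate number as a block, 4 members and 72 genes were called in PVT, where Oas1b (adjusted p = 0.0849) and Ifit1 (0.0567) were not, and 6 members in pIC. P5 and P6 have no control of their number, so each stood alone in its block and added nothing to the STZ estimate. Fewer libraries thus informed this fit than the main fit. With the label as a block, 1 member was called between regions in STZ mice, 4 in control mice (Oasl2, Ifit1, Ifit3 and Ifit3b) and 0 for the interaction.

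Some log2 values near 0, none of them called, changed sign. With the score of microglia as a covariate Ifit1bl1 was 0.21 in PVT and -0.047 in pIC, and Abce1 was -0.020 in pIC. With the endothelium score Ifit1bl1 was 0.019 and Ifit1bl2 -0.090 in PVT, and Abce1 was -0.038 and Pde12 -0.071 in pIC. With the choroid plexus score Pde12 was -0.031 in PVT. Without the 4 libraries low in thalamus genes Ifit1bl1 was 0.25, and without C4 Ifit1bl2 was -0.11. With upper quartile scaling Pde12 was -0.045 in PVT, the interaction of Oas1b was -0.029 and Ifit2 between regions of control mice was 0.0091, and with limma-voom the interaction of Oasl2 was 0.080. Leave-one-out fits gave ranges that span 0, from -0.0033 to 0.030 for Pde12, -0.16 to 0.13 for Ifit1bl1 and -0.11 to 0.16 for Ifit1bl2 in PVT. In pIC they were -0.013 to 0.055 for Abce1, -0.0073 to 0.18 for Ifit1bl1, -0.15 to 0.082 for Ifit1bl2 and -0.16 to 0.19 for Oas1c. For the interaction they were -0.17 to 0.31 for Oas1b, -0.15 to 0.34 for Oas2, -0.18 to 0.084 for Oasl2 and -0.15 to 0.023 for Ifit2, and for Ifit3 between regions of STZ mice -0.19 to 0.10. The causes of these shifts were not tested. Depth limits Oas3, Oas1b and Oas2, which had 0 to 10, 2 to 15 and 7 to 30 counts in STZ libraries of both regions.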
